A study of Mus musculus with 3 samples.

Results

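The BCL2 family genes described here are 10 of the 55536 genes of the annotation, chosen by symbol. They are 6 survival genes (Bcl2a1a, Bcl2a1b, Bcl2a1d, Bcl2, Bcl2l1 and Mcl1) and 4 death genes (Bcl2l11, Bax, Bid and Pmaip1). They were measured in 1 group of 3 libraries of C57BL/6J mouse bone-marrow-derived macrophages, which are macrophages grown in culture from bone marrow. All libraries come from cells that were given lipid A in a pair of exposures: 100 ng/ml for 12 h, then a washout of 12 h, then 100 ng/ml once more for 90 min. Toll-like receptor 4 senses lipid A, the membrane anchor of bacterial lipopolysaccharide. The RNA was the chromatin-bound fraction, depleted of ribosomal RNA and sequenced as total RNA, so RNA still being made and spliced was measured along with finished RNA. Replicate 1 started from 1000 ng of RNA, replicate 2 from 250 ng and replicate 3 from 500 ng. The labels call the libraries biological replicates but name no separate animals or cultures, so the spread between them may be technical. Cells without lipid A, or with a single exposure, were not analysed here, so no level below can be read as a response to lipid A.

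BCL2 family proteins decide whether the outer membrane of the mitochondrion stays intact. Survival members such as MCL1, BCL-XL (from Bcl2l1), BCL2 and A1 (from the Bcl2a1 genes) hold the pore-forming protein BAX and its partner BAK in check. BH3-only proteins such as BIM (from Bcl2l11), BID and NOXA (from Pmaip1) bind the survival members or activate the pore formers. In macrophages, A1 and MCL1 are known for rapid turnover and for genes that answer to inflammatory signals, and BIM for killing cells that lose growth factor support.

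The Bcl2a1 genes are near-identical copies on chromosome 9, and how well reads can be divided among them depends on the bases that differ. The coding sequences are 516 bases each, for 172 residues, and differ at 12 positions over the 3 copies. Bcl2a1a and Bcl2a1b were 97.9% identical, Bcl2a1a and Bcl2a1d 98.6%, and Bcl2a1b and Bcl2a1d 98.8%. The first 120 coding bases are shown because they hold 7 of the 12 differing positions. They come from the GENCODE M21 transcripts on mm10 and lie in Bcl2a1a at chr9:88957051-88957170 on the plus strand, in Bcl2a1b at chr9:89199360-89199479 on the plus strand and in Bcl2a1d at chr9:88731600-88731719 on the minus strand. Capitals mark the bases at which the copies differ, and each sequence reads 5′ to 3′.
Bcl2a1a: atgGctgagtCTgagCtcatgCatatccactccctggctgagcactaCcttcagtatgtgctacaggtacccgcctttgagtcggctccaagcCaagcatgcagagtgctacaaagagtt
Bcl2a1b: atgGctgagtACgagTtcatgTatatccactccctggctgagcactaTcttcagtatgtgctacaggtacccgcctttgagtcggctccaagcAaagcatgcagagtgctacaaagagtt
Bcl2a1d: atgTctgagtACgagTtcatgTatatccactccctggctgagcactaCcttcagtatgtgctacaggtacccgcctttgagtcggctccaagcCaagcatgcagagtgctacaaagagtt
Over the whole transcripts, most stretches of sequence were shared with another copy. Of the stretches of 31 bases in each transcript, 171 of 789 were found in Bcl2a1a and in neither other copy, 215 of 787 in Bcl2a1b and 91 of 833 in Bcl2a1d.

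The promoters of the copies are shown because the same pair of motifs stands in each. The windows of 300 bases (250 before and 50 after the RefSeq start, build GRCm38.p6) lie at chr9:88956670-88956969 on the plus strand for Bcl2a1a, chr9:89199023-89199322 on the plus strand for Bcl2a1b and chr9:88731801-88732100 on the minus strand for Bcl2a1d. Capitals mark TGANTCA, the letters searched for AP-1, and then GAGGAAGT, the letters searched for PU.1, a transcription factor that macrophages need. The motifs do not overlap each other.
Bcl2a1a: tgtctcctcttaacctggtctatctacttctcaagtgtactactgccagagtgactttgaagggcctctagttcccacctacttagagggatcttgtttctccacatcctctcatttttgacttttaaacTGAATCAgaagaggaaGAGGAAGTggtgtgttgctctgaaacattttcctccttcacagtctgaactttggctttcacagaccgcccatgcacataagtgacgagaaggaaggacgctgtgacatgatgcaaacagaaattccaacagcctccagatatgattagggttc
Bcl2a1b: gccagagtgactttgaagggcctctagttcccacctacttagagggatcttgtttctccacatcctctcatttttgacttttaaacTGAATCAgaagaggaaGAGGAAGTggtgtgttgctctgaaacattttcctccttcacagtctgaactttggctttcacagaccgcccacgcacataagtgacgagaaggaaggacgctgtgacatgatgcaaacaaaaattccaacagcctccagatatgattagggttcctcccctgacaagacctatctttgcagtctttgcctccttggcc
Bcl2a1d: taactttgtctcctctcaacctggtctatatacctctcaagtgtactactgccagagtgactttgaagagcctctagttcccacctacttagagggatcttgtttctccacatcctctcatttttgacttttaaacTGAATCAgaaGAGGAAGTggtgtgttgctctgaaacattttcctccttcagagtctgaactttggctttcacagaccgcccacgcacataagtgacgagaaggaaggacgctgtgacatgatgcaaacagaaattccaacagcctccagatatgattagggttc
Both strands were searched in 12 windows of 9 members, all but Pmaip1. The PU.1 motif was in the windows of the 3 Bcl2a1 copies and in no window of the other 6 members searched, against 3.20% of all 32851 windows. The AP-1 motif was in the same 3 windows, against 7.81% of all windows. The windows of the copies are themselves near copies and are not independent of each other: Bcl2a1a and Bcl2a1d matched at 96.0% of 300 aligned columns, and Bcl2a1a and Bcl2a1b at 99.2% of 256. GGAANNNCC, searched for NF-kB, was in windows of Bcl2l1 and Mcl1, against 18.5% of all windows. TTCNNNGAA, searched for STAT factors, was in none of the 12, against 8.30% of all windows. A match is a run of letters only, and binding was not measured.

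Total expected counts in genes were 12502177, 21683473 and 16844974 in replicates 1, 2 and 3. Protein-coding genes held 34.2%, 27.4% and 29.4% of all TPM (a level corrected for transcript length) in the 3 libraries. The labelled cell type matched its markers: 8 of 8 macrophage markers were at 1 TPM or more in each library, with a summed level between 791 and 988 TPM. Of the markers of other cells, 0 of 7 for neutrophils, 0 of 4 for mast cells, 0 of 3 for T cells, 0 of 3 for B cells and 0 of 4 for fibroblasts reached 1 TPM in any library of the authors' gene table, which is used here unless another table is named. The neutrophil markers summed to between 0.11 and 0.45 TPM, and the neutrophil genes S100a8, Ly6g and Elane were at 0. The mast cell markers were all at 0. The T cell markers summed to between 0.08 and 0.32 TPM, the B cell markers to between 0.03 and 0.06 TPM and the fibroblast markers to between 0.27 and 0.84 TPM. In the authors' other transcript table, made from the reads directly, the highest of these markers were Col1a1 at 1.36 ± 0.0419, Mpo at 1.21 ± 0.174 and Ms4a1 at 1.01 ± 0.229 TPM (SD, n = 3).

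Most of the BCL2 family genes were plainly present on chromatin. At 10 TPM or more in each library were 8 of the 10, against 19.2% of the 22028 protein-coding genes. All 10 reached 1 TPM in each library, against 41.1% of protein-coding genes. The median over the 10 genes was 55.2, 41.6 and 64.4 TPM in replicates 1, 2 and 3 (53.7 ± 11.4, SD, n = 3). The median over the 9701 protein-coding genes that averaged 1 TPM or more was 9.24, 9.52 and 10.2 TPM. No test was made on these levels, since the genes were chosen with earlier results known and an exact sign-flip test on 3 libraries cannot go below p = 0.25.

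**Figure D1:**
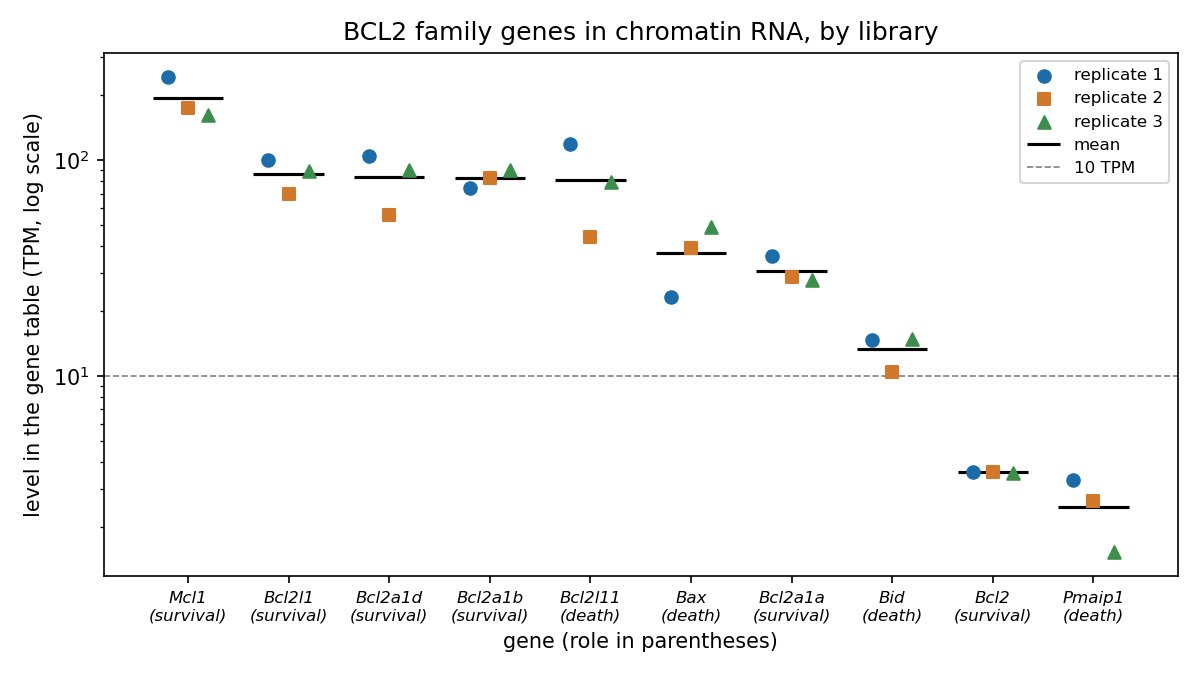
Level of each gene in the gene table (TPM, log scale) by library, ordered by mean; circles, squares and triangles are replicates 1, 2 and 3, the black line is the mean and the dashed line is 10 TPM. Mcl1 stood above the other 9 genes in each library, 5 further genes averaged between 37.3 and 86.6 TPM, and Bcl2 and Pmaip1 lay under 4 TPM.

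Among the survival genes, Mcl1 was the highest. Mcl1 (ENSMUSG00000038612.16, chr3:95658788-95663176, plus strand) encodes a short-lived protein that restrains BAK and BIM. It had 244, 174 and 162 TPM in replicates 1, 2 and 3 (193 ± 44.0, SD, n = 3), which placed it at rank 252 of 22028 protein-coding genes. Its lowest library was above the highest library of every other member. By distance in log2(TPM + 1) over the 3 libraries, the protein-coding genes closest to Mcl1 were Rapgef2 at 0.12, Morc3 at 0.13 and Lyn at 0.14, with means of 190, 193 and 200 TPM. Mcl1 was highest in replicate 1 in the gene table, while in the other transcript table it had 227, 231 and 231 TPM.

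Bcl2l1 (ENSMUSG00000007659.18, chr2:152780668-152831728, minus strand), the gene of BCL-XL, had 100, 70.0 and 89.6 TPM in replicates 1, 2 and 3 (86.6 ± 15.3, SD, n = 3). Bcl2 (ENSMUSG00000057329.7, chr1:106538178-106714274, minus strand), the founding survival gene of the family, had 3.59, 3.60 and 3.54 TPM (3.58 ± 0.0321). By TPM its 3 libraries were closer together than those of any other member, on 160 to 278 expected counts. When TPM were rescaled to the protein-coding genes of each library, its highest library was 1.25 times the lowest, and that of Bcl2a1a 1.12 times. The counting interval of replicate 1 alone ran from 3.05 to 4.18 TPM (95%, exact Poisson, counting error only). The level of Bcl2l1 was 27.9, 19.4 and 25.3 times that of Bcl2 in the 3 libraries.

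In the gene table the 3 Bcl2a1 copies together were about as high as Mcl1, with 215, 167 and 208 TPM (197 ± 25.7, SD, n = 3). The ratio of their sum to Mcl1 was 0.882, 0.960 and 1.28 in replicates 1, 2 and 3, so neither was higher in every library. In the other transcript table the copies summed to 242, 154 and 194 TPM, against 227, 231 and 231 TPM for Mcl1. Mcl1 was thus higher there in replicates 2 and 3. Bcl2a1d (ENSMUSG00000099974.1, chr9:88723285-88731914, minus strand) had 105, 56.0 and 90.0 TPM (83.5 ± 24.9). Bcl2a1b (ENSMUSG00000089929.1, chr9:89199209-89207827, plus strand) had 74.5, 82.4 and 90.2 TPM (82.4 ± 7.84). Bcl2a1a (ENSMUSG00000102037.1, chr9:88956900-88962419, plus strand) had 35.8, 28.9 and 27.7 TPM (30.8 ± 4.37). Bcl2a1a was the lowest copy in every library, below the whole range of Bcl2a1b and of Bcl2a1d, while the order of Bcl2a1b and Bcl2a1d changed between libraries.

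As shares of the 3 copies' summed TPM, Bcl2a1b held 34.7%, 49.2% and 43.4% in replicates 1, 2 and 3 (42.4 ± 7.33), Bcl2a1d held 48.6%, 33.5% and 43.3% (41.8 ± 7.69), and Bcl2a1a held 16.7%, 17.3% and 13.3% (15.8 ± 2.12). The other transcript table gave means of 39.4% for Bcl2a1b, 41.4% for Bcl2a1d and 19.1% for Bcl2a1a. Both quantifications therefore put Bcl2a1a last in all 3 libraries. The posterior SD that the authors deposited for each expected count, a measure of how uncertain the division of shared reads is, was 22.2, 15.2 and 17.3 counts for Bcl2a1b, on 495, 898 and 770 counts. It was between 10.9 and 12.0 counts for Bcl2a1d and between 9.07 and 10.2 counts for Bcl2a1a. For Mcl1, Bcl2l1, Bcl2l11 and Pmaip1 it was 0, and for Bcl2, Bax and Bid at most 2.46.

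A further annotated gene bears on Bcl2a1b. Gm29094 (chr9:89199379-89215471, plus strand) has 664 exonic bases, of which 401 are also exonic in Bcl2a1b and 262 in the downstream gene Mthfs. Counting it leaves 93 stretches of 31 bases found in Bcl2a1b alone. Gm29094 had 63.8, 14.5 and 25.5 TPM in replicates 1, 2 and 3, highest where Bcl2a1b was lowest, with a posterior SD of 23.1, 14.2 and 16.8 counts on 318, 115 and 159 expected counts. The 2 genes together had 138, 96.9 and 116 TPM, so that their sum was highest in replicate 1 although Bcl2a1b by itself was lowest there. By TPM this opposition was not seen in the other transcript table. There Bcl2a1b had 83.4, 65.7 and 80.2 TPM and Gm29094 had 53.4, 24.8 and 30.3 TPM, both highest in replicate 1. Rescaled to the protein-coding genes of each library, Bcl2a1b in that table had 181, 190 and 209 and was lowest in replicate 1. Whether the opposition appears there therefore depends on the scale. With Gm29094 added to Bcl2a1b, an alternative chosen after seeing the data, the share of Bcl2a1b was 49.7%, 53.3% and 49.6% (50.8 ± 2.13, SD, n = 3), and Bcl2a1b then led in each library.

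**Figure D2:**
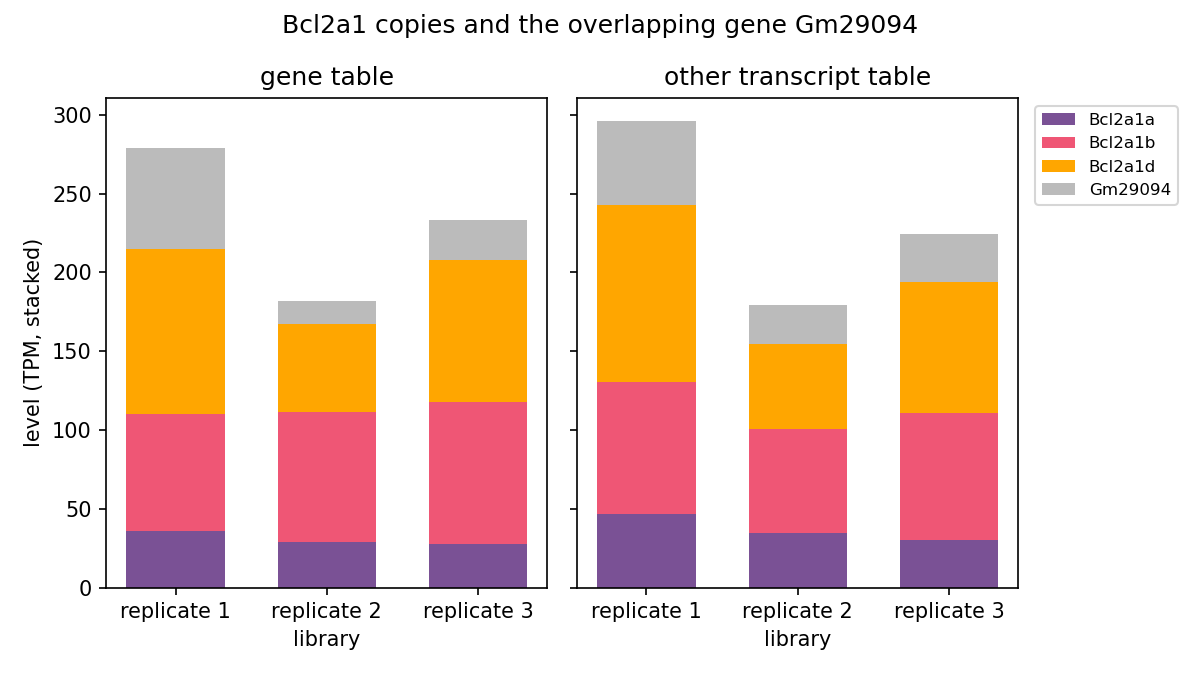
Stacked TPM of the 3 Bcl2a1 copies and of Gm29094 in each library, in the gene table (left) and in the other transcript table (right). The grey part, Gm29094, is 63.8 TPM in replicate 1 and 14.5 TPM in replicate 2 of the gene table, and Bcl2a1a is the smallest of the copies in all 6 bars.

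The genes beside the copies were also on chromatin. Mthfs, which lies beside Bcl2a1b and acts in folate metabolism, had 125, 64.5 and 70.6 TPM, and its relative Mthfsl beside Bcl2a1d had 150, 77.9 and 85.1 TPM. Both were highest in replicate 1 and lowest in replicate 2, as Bcl2a1d was by TPM. This order is not particular to the locus: Bcl2l1 and Bcl2l11 on chromosome 2 had it, and so did the protein-coding share of TPM. Rescaled to protein-coding genes, Bcl2a1d had 305, 204 and 306. The antisense gene Gm10634 spans Bcl2a1d without sharing an exonic base with it and had 27.0, 14.2 and 13.9 TPM. No source used here gives the strand setting of the counting, so reads of one from the introns of the other cannot be told apart with certainty. Bcl2a1c, the remaining relative, had 4, 0 and 2 expected counts.

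Among the death genes, Bcl2l11 was the highest on average and by TPM the most variable. Bcl2l11 (ENSMUSG00000027381.16, chr2:128126038-128162547, plus strand) encodes BIM, a BH3-only protein that binds all survival members. It had 119, 43.9 and 79.5 TPM in replicates 1, 2 and 3 (80.9 ± 37.6, SD, n = 3). Replicate 1 was 2.71 times replicate 2, on 3056 and 1947 expected counts. Bid (ENSMUSG00000004446.12, chr6:120891930-120916853, minus strand), which links death receptors to mitochondria, had 14.7, 10.4 and 14.9 TPM (13.3 ± 2.53). Bcl2l13, a family member on the opposite strand, shares 628 exonic bases with Bid and had 4.51, 3.72 and 3.81 TPM. Pmaip1 (ENSMUSG00000024521.8, chr18:66458533-66465565, plus strand), which encodes NOXA, a partner of MCL1, had 3.28, 2.63 and 1.52 TPM (2.48 ± 0.89) on 88, 83 and 53 counts. The counting intervals of replicate 1, 2.63 to 4.04 TPM, and of replicate 3, 1.14 to 1.99 TPM, did not overlap.

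Bax (ENSMUSG00000003873.11, chr7:45461697-45466898, minus strand), the pore former, was lowest in the library where Bcl2l11 was highest. It had 23.3, 39.4 and 49.2 TPM (37.3 ± 13.1, SD, n = 3) on 176, 529 and 510 counts. The ratio of Bcl2l11 to Bax was therefore 5.12 in replicate 1, 1.12 in replicate 2 and 1.61 in replicate 3, above 1 in all 3 libraries. The other transcript table gave 2.83, 0.971 and 1.44, which puts Bcl2l11 below Bax in replicate 2. The order of these genes is not settled at this spread.

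In 3 of the 10 genes (Bcl2l11, Bax and Pmaip1) the highest library was at least 2 times the lowest, against 20.2% of the 9701 protein-coding genes that averaged 1 TPM or more. All 3 are death genes, but 2.12 for Bax and 2.16 for Pmaip1 stood close to the largest survival ratio, 1.87 for Bcl2a1d. Pmaip1 had only 53 to 88 counts. With 10 genes, a count of 3 is near the 20.2%, and no trait of death genes is read from it. On the rescaled values the ratio was 2.46 for Bax, 2.17 for Bcl2l11 and 1.86 for Pmaip1, which then fell under 2. The median ratio of highest to lowest library was 1.47 over the 10 genes and 1.5 over those 9701. The libraries also differ in starting RNA, depth and the protein-coding share of TPM, and the part of these in the spread was not tested.

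In order of mean level, the ranges over libraries did not overlap between Mcl1 and Bcl2l1, between Bcl2a1a and Bid, between Bid and Bcl2, or between Bcl2 and Pmaip1. They overlapped between all neighbours from Bcl2l1 down to Bcl2a1a. Genes further apart in that stretch did separate: Bcl2a1a lay wholly below Bcl2l1, Bcl2a1d, Bcl2a1b and Bcl2l11, and Bax wholly below Bcl2l1, Bcl2a1d and Bcl2a1b. The survival genes summed to 562, 415 and 463 TPM, and the death genes to 160, 96.3 and 145 TPM, a ratio of 3.51, 4.31 and 3.19 (3.67 ± 0.576, SD, n = 3). By medians, the survival genes had 87.4, 63.0 and 89.8 TPM and the death genes 19.0, 24.9 and 32.1 TPM. The difference of median log2(TPM + 1), a scale that understates differences of low genes, was 2.17, 1.57 and 1.68 (1.81 ± 0.32), and averaged 0.95 in the other transcript table. The survival side was higher in all 3 libraries, but single pairs did not all follow it: the ratio of Bcl2l1 to Bcl2l11 was 0.841 in replicate 1, 1.59 in replicate 2 and 1.13 in replicate 3, while that of Mcl1 to Bcl2l11 was 2.05, 3.96 and 2.04. The sums cover 6 survival genes but only 4 death genes. Only Bcl2l1, Bcl2, Bcl2l11, Bax and Bid have annotated transcripts that run into an intron, as described below. Levels of these genes and of the others may therefore differ in how much unspliced RNA they take in, which was not tested. These are RNA levels on chromatin, and protein was not measured. In bulk RNA, fewer cells with a transcript and less of it per cell cannot be told apart.

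To compare both quantifications, TPM were rescaled so that protein-coding genes summed to 1000000 in each library. The gene table was lower than the other transcript table with no overlap of libraries for 1 of the 10 genes, Bcl2, against 20.6% of the same 9701 genes. It was higher with no overlap for 2 of them, Bcl2a1b and Bcl2l1, against 15.1%. On this scale Bcl2 had 10.5, 13.1 and 12.0 in the gene table and 14.7, 18.9 and 16.4 in the other, a ratio of 0.713. Bcl2l1 had 293, 255 and 304 in the gene table and 181, 158 and 194 in the other, a ratio of 1.60. Both tables quantify the same libraries, so they were also compared within each library, a comparison added after seeing the data. The gene table was lower in each library for 2 of the 10 genes, Bcl2 and Bid, against 39.3% of the 9701 genes. It was higher in each library for 5 (Bcl2l1, Bcl2l11 and the 3 Bcl2a1 copies), against 41.1%. The ratio for Bid was 0.905, 0.571 and 0.599 in replicates 1, 2 and 3, and that for Bcl2a1a 1.03, 1.05 and 1.19. For Mcl1, Bax and Pmaip1 the direction changed between libraries. The ratio of Bcl2l1 to Bcl2 averaged 24.2 ± 4.34 in the gene table and 10.8 ± 2.16 in the other (SD, n = 3).

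**Figure D3:**
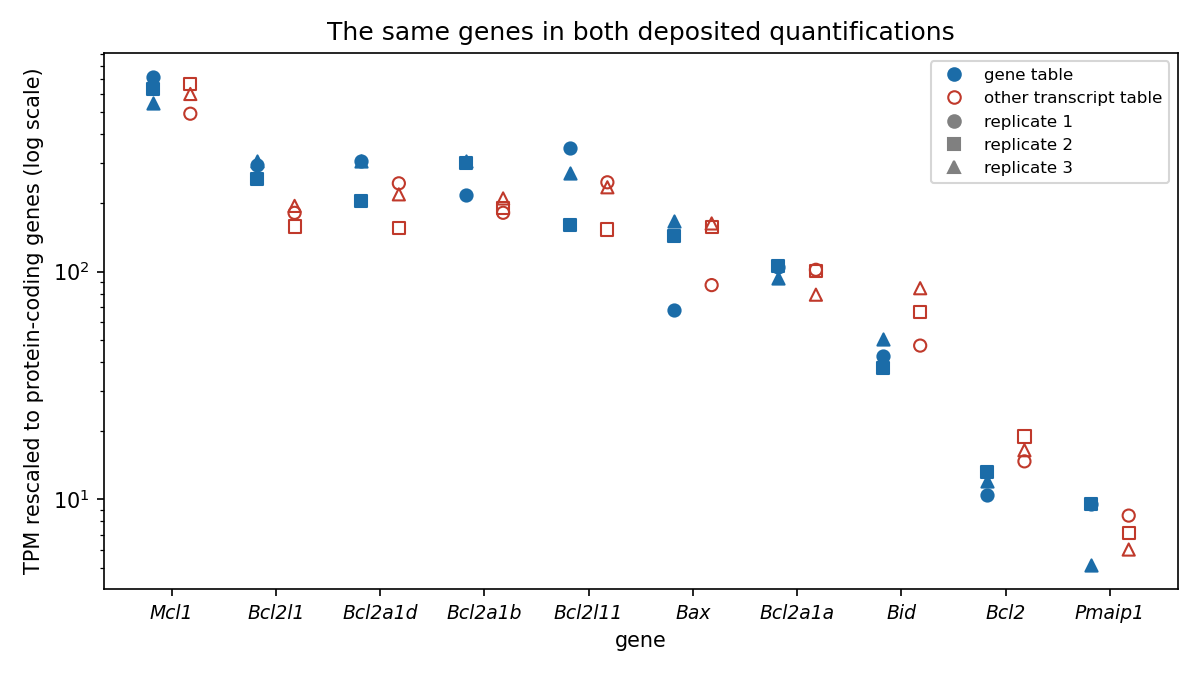
Level of each gene rescaled to a protein-coding sum of 1000000 TPM (log scale) in the gene table (filled) and in the other transcript table (open), with 1 symbol for each replicate. Bcl2l1 and Bcl2a1b are higher in the gene table in all libraries and Bcl2 is lower, while the ranges of the 2 sets of points overlap for the other 7 genes.

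Both tables divided several of these genes among transcripts that run into an intron. Alternative forms are a known feature of this family: loss of the membrane anchor or of single domains changes where the protein acts. For each gene the protein-coding transcript with the longest coding sequence was taken, and a transcript was counted as intron-containing if at least 100 of its exonic bases lie in an intron of that form, a limit chosen after seeing the data. Such transcripts are annotated for 5 of the 10 genes. They held 81.4% ± 2.52 of the TPM of Bcl2l1, 73.1% ± 1.71 of Bcl2l11, 66.8% ± 1.79 of Bcl2, 59.8% ± 1.68 of Bid and 59.3% ± 1.47 of Bax (SD, n = 3). The median over the 5 was 66.1%, 68.9% and 65.5% in replicates 1, 2 and 3. The median over the 7518 protein-coding genes with such a transcript and at least 1 TPM in each library was 59.7%, 53.7% and 54.9%. In the other transcript table the means of the 5 genes ranged from 62.8% for Bcl2l11 to 87.4% for Bcl2. The median over 9078 protein-coding genes there was 63.4%, 60.5% and 61.2% in replicates 1, 2 and 3, so Bcl2l11 stood near it. Mcl1, Pmaip1 and the Bcl2a1 copies have no such annotated transcript, so the tables cannot show intron reads for them.

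**Figure D4:**
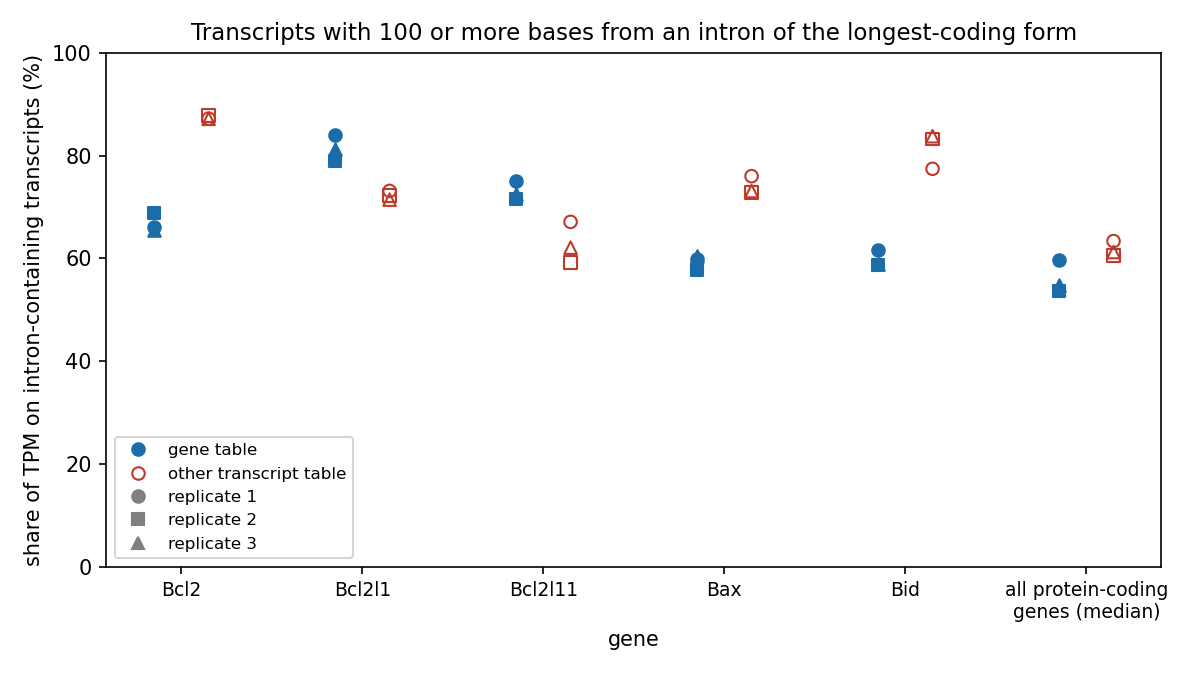
Share of a gene's TPM (%) on transcripts with at least 100 bases from an intron of the longest-coding form, for the 5 genes that have one and as the median of all protein-coding genes; filled symbols are the gene table, open ones the other transcript table, with 1 symbol for each replicate. The 5 genes lie between 57.7% and 87.9% in every library of both tables.

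The leading transcript of Bcl2 was Bcl2-202, a single exon of 2841 bases that codes 199 residues and has 1966 bases in the intron of Bcl2-201, the form of 236 residues. Bcl2-202 held 66.1%, 68.9% and 65.5% of Bcl2 in replicates 1, 2 and 3. For Bcl2l1 the leading transcript was Bcl2l1-205, of 209 residues, with 1556 of its 2232 bases in introns of Bcl2l1-201. It held 65.3%, 67.4% and 62.6%, whereas the forms of 233 residues, the length of full BCL-XL, held 16.0%, 21.2% and 20.1%. For both genes the transcript with intron sequence led in every library and in both tables. Reads of unspliced RNA and reads of such a finished transcript cover the same bases, so the 2 cannot be told apart in these tables, and the shares are not shares of protein forms.

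BIM is made in forms of differing length. Bcl2l11-205, the form of 196 residues, held 19.7%, 23.5% and 24.2% of Bcl2l11 in replicates 1, 2 and 3, the form of 140 residues held 3.49% ± 0.994 and the forms of 110 residues 0.924% ± 0.418 (SD, n = 3). Most of the rest lay on Bcl2l11-202, with 35.5%, 27.7% and 29.6%, and on the noncoding Bcl2l11-208, with 35.1%, 29.6% and 30.8%. These have 1859 and 1001 bases in introns of Bcl2l11-205. Bcl2l11-202 had 42.3, 12.2 and 23.6 TPM and Bcl2l11-205 had 23.5, 10.3 and 19.3 TPM. Both forms were highest in replicate 1 and lowest in replicate 2. The other transcript table placed 14.8% on Bcl2l11-205, 20.3% on Bcl2l11-202 and 20.5% on Bcl2l11-208. It placed 15.3% on the forms of 110 residues, so the share of that short form is not settled.

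Mcl1 has 2 annotated transcripts. Mcl1-201 codes 331 residues in 3 exons, and Mcl1-202 codes 285 residues in 4. The alignment-based table placed 0%, 7.34% and 0% of Mcl1 on Mcl1-202 in replicates 1, 2 and 3, and the other transcript table placed 11.0%, 45.7% and 47.3% there. On rescaled values, the ratio of the gene table to the other table for the whole gene was 1.44, 0.951 and 0.916 in the 3 libraries, so its direction changed between them. The division between forms depended on the quantification.

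For Bax, Bax-203 of 172 residues, with 470 bases in introns of Bax-201, held 45.7% ± 3.98, and Bax-201 of 192 residues held 38.1% ± 1.93 (SD, n = 3). The annotated retained-intron transcript of Bax held 18.7%, 9.76% and 12.3%, and that of Bid 27.0%, 15% and 14.8%. The median over these 2 genes was 16.3% ± 5.73, against 48.1% ± 2.41 over 5881 protein-coding genes with such a transcript. In the other transcript table it was 35.2% ± 5.79 over the 2 genes and 46.4% ± 0.992 over 6946 genes, with 50.8% for Bax and 19.5% for Bid. Bid-201, the coding form of 195 residues, held 35.1% ± 2.71 of Bid, and 64.9% lay on transcripts not annotated as protein-coding. In the other transcript table Bid-201 held 18.5%, Bax-203 23.2% and Bax-201 21.5%. Pmaip1-201, of 103 residues, held 72.6%, 32.8% and 90.7% of Pmaip1 on few counts, and 76.0%, 84.7% and 82.4% in the other transcript table.

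Most of the rest of the family stayed under 10 TPM in the gene table, as did most protein-coding genes. Of 17 other BCL2 family genes, 8 were at 1 TPM or more in each library, against 41.1% of protein-coding genes, and 2 at 10 TPM or more, against 19.2%. With 17 genes, both counts are near these shares, and no trait of the family is read from them. Their median was 1.57 TPM ± 0.386 (SD, n = 3), against 0.353 TPM over all protein-coding genes. The highest were Becn1, the autophagy protein Beclin 1, at 61.1 ± 8.23 TPM, the survival gene Bcl2l2 at 29.3 ± 3.79 TPM and the BH3-only gene Bad at 8.64 ± 1.5 TPM. Bcl2l10 was at 0 counts in each library, which allows up to 0.272, 0.159 and 0.206 TPM (3 counts, counting error only). Outside the rule for named genes, Bak1, the partner of Bax, had 7.06, 5.73 and 6.38 TPM and was chosen after its values were seen. So were Bbc3 and Bcl2l15, which differed between the tables. Bbc3, which encodes the BH3-only protein PUMA, averaged 4.71 ± 0.811 TPM in the gene table and 29.4 ± 3.97 TPM in the other, and Bcl2l15 averaged 0.323 ± 0.0907 and 13.5 ± 4.12 TPM. Bcl2l13 and Bnip3l, also named after their values were seen, averaged 4.01 and 4.96 TPM in the gene table. In the other transcript table they averaged 10.7 and 10.9 TPM.

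A further list of 11 genes covered those that act at the mitochondrion or after it opens. Of these, 10 were at 1 TPM or more in each library, against 41.1% of protein-coding genes, and 7 at 10 TPM or more, against 19.2%. Their median was 13.7 ± 1.25 TPM (SD, n = 3). Apaf1, which builds the apoptosome, had 126 ± 25.7 TPM, the channel gene Vdac2 had 93.8 ± 7.98 TPM and Xiap, an inhibitor of caspases, had 55.2 ± 14.3 TPM. The lowest was the nuclease gene Endog, at 0.0567 TPM on 0, 2.69 and 0 counts. All 9 listed genes that regulate the family were at 1 TPM or more in each library and 7 at 10 TPM or more, with a median of 39.1 ± 8.23 TPM. Nfkb1, an NF-kB subunit, had 460 ± 126 TPM, Mdm2, which restrains p53, had 282 ± 83.9 TPM, and Huwe1, a ubiquitin ligase for MCL1, had 166 ± 16.7 TPM. Foxo3, a transcription factor that can switch on Bcl2l11, was the lowest by mean, at 2.99, 8.28 and 5.65 TPM. Fbxw7, a subunit of a ubiquitin ligase that was named after its values were seen, was lower than Foxo3 in replicate 2, at 6.33 TPM, and by mean in the other transcript table, at 8.01 TPM against 11.6 TPM for Foxo3.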

How the data were processed

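Chromatin-bound RNA of 1 group with 3 libraries was used. Per the file headers, the authors' alignment-based quantification was deposited per gene and per transcript, in the form of expected counts (estimated counts that need not be whole), TPM and effective lengths. Their other transcript table, made from the reads, gives estimated counts and TPM. The deposited posterior SD of each count is a score of how uncertain the division of reads is. The deposited TPM bounds were not used, since they are centred on another estimate. Per the labels, mm10 and GENCODE M21 were used. The sources used here name no aligner, quantifier or strand setting.

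Genes were linked by identifier. The 3 libraries held 12502177, 21683473 and 16844974 expected counts in genes, and 1.34%, 0.292% and 0.416% of counts lay in rows that are no gene and were left out of totals. Transcript TPM of the alignment-based quantification summed to its gene TPM within 0.04. Levels are mean and SD over libraries, with no test. Counting intervals are exact Poisson at 95% and cover counting error only. Expected counts were rounded for TMM factors (edgeR 4.0.16) and size factors (DESeq2 1.42.0) in R 4.3.3, tested on simulated data. Other steps used Python 3.11.15, numpy 2.4.6, pandas 2.3.3, SciPy 1.17.1, Biopython 1.88 and matplotlib 3.10.9. The text names all 10 genes, the 3 highest and the lowest of each list, and the 3 genes closest to the highest member. One listed symbol, Ddit3, matched 2 identifiers, and the first by identifier was taken. Promoters are from RefSeq on GRCm38.p6. Alternatives were another TPM scale, the other transcript table, other thresholds and pseudocounts, other normalizations, and each replicate left out. The genes, lists and rules were chosen with earlier results of these data known.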

Additional observations from a re-analysis of the deposited data

How the results depend on the processing

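The difference of median log2(TPM + 1) between survival and death genes, 1.81, kept its sign in all alternatives. It was 0.95 in the other transcript table, 1.40 with means over genes, 2.46 with the Bcl2a1 copies summed, and 1.42 with TMM or DESeq2 factors on counts without length correction. The share of Bcl2a1a was 19.1% in the other transcript table and 13.5% with Gm29094 added to Bcl2a1b, which put Bcl2a1b at 50.8%. The retained-intron share of Bax and Bid was 35.2% in the other transcript table. The count of genes at 10 TPM or more in each library, 8, was 10 at a threshold of 1 TPM, 9 with rescaled TPM and 8 in the other alternatives run. The other transcript table moved 5 of the 10 levels by more than 1 SD, and rescaling to protein-coding genes raised all 10 by construction. No pairing of libraries between conditions was possible because there is 1 group and no second condition. Leaving out each replicate was run, but with 3 libraries it cannot move a mean by 1 SD and shows nothing about stability. Depth limits Pmaip1, with 53 to 88 counts, most.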
